A study of Mus musculus with 2 samples.

Results

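Atrial-type cardiomyocytes are described here as they appear in droplet RNA libraries made from mouse right ventricle. They were selected on the transcripts that define them. A barcode was a member if it held at least 1000 UMIs (unique molecular identifiers, 1 per captured RNA molecule), if Ttn and Ryr2 made up at least 1% of its UMIs, and if it held at least 3 UMIs of Myl4, Myl7 and Sln together. Of 22183 barcodes, 82 met the rule, 70 in library 1 and 12 in library 2. They were compared with 9846 ventricular-type barcodes (7326 in library 1 and 2520 in library 2), which had at least 1000 UMIs, at least 2% Ttn and Ryr2 and no UMI of Myl4, Myl7 or Sln. Because Ttn, Ryr2, Myl4, Myl7 and Sln made the selection, their levels are a description and were not tested.

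Both libraries came from C57/BL6J mice in which CBP flox/flox and p300 flox/flox are combined with Trap flox/flox (written trap in the second sample). CBP and p300 are related lysine acetyltransferases encoded by Crebbp and Ep300. The pups received AAV9, an adeno-associated virus used to reach the heart, on postnatal day 1, and the right ventricle was harvested on postnatal day 21. The labels call both samples p300/CBP knockouts, so there are 2 samples of 1 group, no control sample, and no comparison of knockout with control. They do not give the promoter or cell type that drives the recombinase, or the number of animals behind each library. The p-values below therefore measure only how the difference between the 2 types of barcode varied between these 2 libraries, which may be technical. That variation was estimated with information shared over all genes, because each gene leaves 1 residual degree of freedom. Levels that shift alike in both types of a library are taken out by treating library as a block. The protocol names frozen tissue, collagenase digestion and bead enrichment of CD45+ cells.

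Atrial cardiomyocytes are the muscle cells of the upper heart chambers. They carry their own myosin light chains (Myl4 and Myl7, where ventricular cells use Myl3 and Myl2), restrain the calcium pump SERCA2 with sarcolipin (Sln) as well as phospholamban, and store atrial natriuretic peptide (Nppa) in granules from which it is released into the blood. They also carry acetylcholine-activated potassium channels built from Kcnj3 and Kcnj5, and the transcription factors Tbx5, Nr2f1 and Nr2f2 are associated with the atrial programme. In the postnatal mouse, Nppa is strongly reduced in the ventricular wall and stays high in the atria.

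To show what lies next to the genes that mark these cells, the 250 bases before the start of 5 marker genes are printed from RefSeq on GRCm38.p6, in the direction of the gene. Nppa is at chr4:148000472-148000721 (plus strand), Myl7 at chr11:5898783-5899032 (minus strand), Myl4 at chr11:104550413-104550662 (plus strand), Bmp10 at chr6:87428744-87428993 (plus strand) and Kcnj3 at chr2:55435720-55435969 (plus strand). Capitals mark matches, on either strand, to GATAA, the core read by GATA factors, to GGTGTGA, a T-box site, and to TATAAA, the core read by TATA-binding protein. No 2 matches overlapped.
Nppa: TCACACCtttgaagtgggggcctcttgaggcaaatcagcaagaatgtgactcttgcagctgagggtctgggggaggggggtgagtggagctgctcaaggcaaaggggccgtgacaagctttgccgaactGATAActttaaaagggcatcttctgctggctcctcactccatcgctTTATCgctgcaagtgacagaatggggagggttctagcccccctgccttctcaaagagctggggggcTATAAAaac
Myl7: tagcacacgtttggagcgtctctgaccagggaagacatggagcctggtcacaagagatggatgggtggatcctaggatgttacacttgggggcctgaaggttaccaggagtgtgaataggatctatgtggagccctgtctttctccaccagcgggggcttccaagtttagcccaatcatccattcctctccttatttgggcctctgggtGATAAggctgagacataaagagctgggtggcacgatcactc
Myl4: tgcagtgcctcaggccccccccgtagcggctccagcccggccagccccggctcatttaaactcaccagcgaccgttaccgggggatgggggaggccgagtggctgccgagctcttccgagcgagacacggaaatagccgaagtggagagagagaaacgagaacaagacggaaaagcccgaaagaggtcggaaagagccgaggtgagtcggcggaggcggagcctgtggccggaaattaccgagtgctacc
Bmp10: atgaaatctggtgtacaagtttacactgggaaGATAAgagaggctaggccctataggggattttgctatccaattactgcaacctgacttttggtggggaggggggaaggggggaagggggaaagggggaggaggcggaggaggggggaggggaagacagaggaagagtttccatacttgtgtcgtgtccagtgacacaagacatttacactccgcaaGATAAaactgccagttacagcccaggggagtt
Kcnj3: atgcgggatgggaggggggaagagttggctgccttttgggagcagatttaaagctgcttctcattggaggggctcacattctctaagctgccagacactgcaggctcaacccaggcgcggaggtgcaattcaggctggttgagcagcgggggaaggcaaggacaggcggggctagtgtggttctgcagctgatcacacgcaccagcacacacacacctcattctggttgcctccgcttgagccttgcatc
In the Nppa window GATAA matched on the plus strand of the gene from 121 to 117 bases before the start and on the other strand from 75 to 71 bases before it. TATAAA matched from 9 to 4 bases before the start, and GGTGTGA matched on the other strand, 250 to 244 bases before it. The Bmp10 window held GATAA at 218 to 214 and at 32 to 28 bases before the start, and the Myl7 window held 1, at 41 to 37 bases before it. None of the 3 motifs was found in the Myl4 and Kcnj3 windows. Among 32851 promoter windows of this length, 22.6% held GATAA, 3.33% held GGTGTGA and 12.4% held TATAAA, so these matches are letters in a sequence and no measure of binding.

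Atrial-type barcodes were rare in both libraries. In library 1 they were 70 of 8564 cardiomyocyte barcodes (Ttn and Ryr2 at least 1%), a share of 0.817% with a 95% Clopper-Pearson interval of 0.638 to 1.03. In library 2 they were 12 of 2751, a share of 0.436% (0.226 to 0.761). The labels do not describe how the right ventricle was separated from the neighbouring atrium, so these data cannot show whether the members lay in the ventricular wall. Such intervals, and the Poisson intervals below, cover counting error only. Members and ventricular-type barcodes had similar depths, with medians of 4738.5 and 7808 UMIs in members of libraries 1 and 2, against 5070.5 and 7727.5 UMIs in ventricular-type barcodes. The summed depth differed far more, at 452090 and 110511 UMIs in members and 44177003 and 22926263 UMIs in ventricular-type barcodes. The precision of every comparison is therefore limited by the members, of which library 2 held only 12. The libraries share 17 barcode sequences, none of them a member's.

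**Figure D1:**
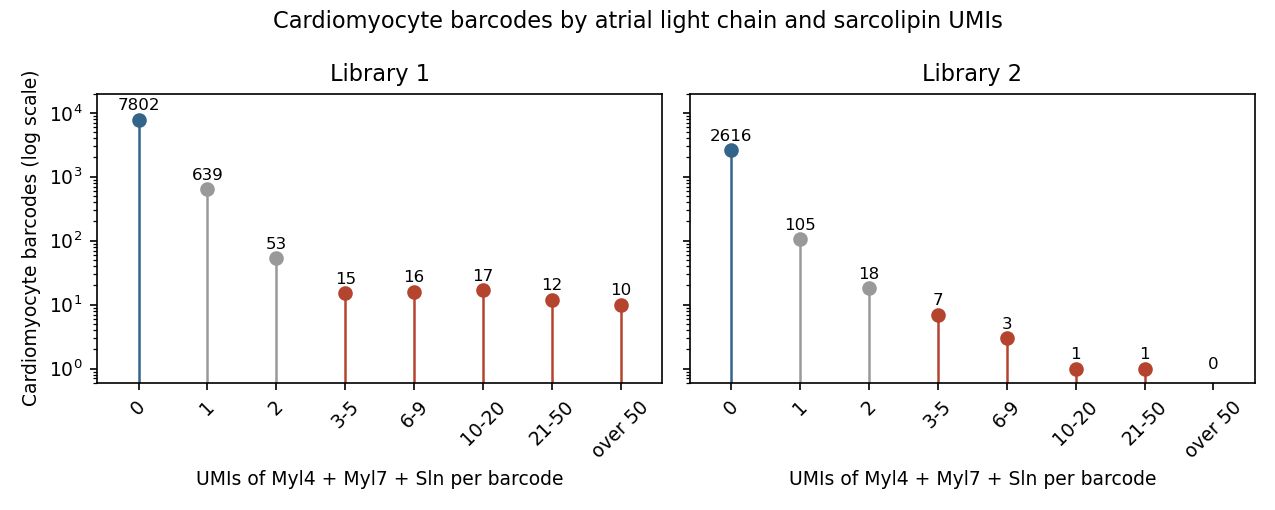
Number of cardiomyocyte barcodes (vertical axis, log scale) by their summed UMIs of Myl4, Myl7 and Sln (horizontal axis), for library 1 and library 2. Red marks members, grey barcodes with 1 or 2 such UMIs, and blue barcodes with none, of which those at or above 2% Ttn and Ryr2 form the ventricular type. Library 1 keeps 10 to 17 barcodes in each class from 3 UMIs upward, whereas 7 of the 12 members of library 2 have 3 to 5 UMIs.

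The members spanned a wide range of atrial transcripts. In library 1 they held from 3 to 276 UMIs of Myl4, Myl7 and Sln, with a median of 12, and in library 2 from 3 to 31, with a median of 4.5. All 3 genes were detected together in 44 of 70 members of library 1 and in 3 of 12 of library 2. At the edge of the rule, the barcodes with 3 such UMIs (6 and 5 in libraries 1 and 2) had 296 and 492 Nppa UMIs per 1000000 (CPM), and those just outside with 2 UMIs (53 and 18) had 872 and 52.0 CPM. Nppa was thus higher just inside the limit in library 2 and not in library 1. Kcnj3 was higher just inside in both, at 1349 and 917 CPM, against 658 and 389 CPM just outside. The ventricular marker Myl2 was at 2730 and 335 CPM just inside and at 1444 and 704 CPM just outside. In ventricular-type barcodes it was at 1113 and 839 CPM, so members at this edge exceeded that level in library 1 and not in library 2. The members above 20 UMIs of Myl4, Myl7 and Sln, 22 and 1 in number, reached 21396 and 4227 CPM of Nppa. The limit on Ttn and Ryr2 also left out barcodes with at least 3 of these UMIs, 32 in library 1 and 24 in library 2. Their Nppa level was 20112 and 754 CPM, and their median mitochondrial share was 7.79% and 1.35%.

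Leaving each marker out of the rule in turn gave its level in barcodes that it had not chosen. Members selected on Myl7 and Sln (56 and 4) had Myl4 at 1696 and 1265 CPM, against 6.73 and 4.92 CPM in ventricular-type barcodes selected in the same way. Myl7, left out in turn, was at 1402 and 139 CPM in 62 and 10 members, against 3.71 and 0.992 CPM. Sln was at 1236 and 47.5 CPM in 62 and 10 members, against 4.36 and 0.0436 CPM. Each marker was therefore high where the other 2 made the choice, and Sln in library 2 rested on 5 UMIs in 3 barcodes.

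Libraries and members differed in RNA content in ways that bear on all levels below. Ttn and Ryr2 made up a median of 2.66% and 3.38% of UMIs in members of libraries 1 and 2. In ventricular-type barcodes, whose limit was 2% instead of 1%, the medians were 3.37% and 4.24%. Beyond the alternatives with 1 limit for both types, the part of this in the calls was not tested. The mitochondrial share of UMIs had a median of 0.938% in members of library 1 and 0.114% in those of library 2, against 0.254% and 0.109% in ventricular-type barcodes. It exceeded 2% in 26 of 70 members of library 1 and 0 of 12 of library 2, against 90 of 7326 and 17 of 2520 ventricular-type barcodes. Transcripts of several other cell types were also higher in members of both libraries. The 6 fibroblast markers summed to 626 and 2217 CPM in members, against 128 and 436 CPM, the 7 macrophage markers to 59.7 and 516 CPM, against 33.3 and 120 CPM, and the 4 globin genes to 2172 and 534 CPM, against 148 and 304 CPM. The 5 endothelial markers summed to 345 and 290 CPM, against 76.2 and 162 CPM, and the endocardial and epicardial or mesothelial sums were higher in both libraries too. Other lists differed between libraries. The 3 smooth muscle markers were at 201 and 9.05 CPM in members, against 43.7 and 99.6 CPM, the 5 pericyte markers at 124 and 36.2 CPM, against 56.9 and 61.6 CPM, the 4 lymphatic markers at 8.85 and 27.1 CPM, against 8.74 and 30.6 CPM, and the 3 Schwann or glial markers at 13.3 and 27.1 CPM, against 16.9 and 16.3 CPM. In members all fibroblast, endothelial, macrophage and globin genes had UMIs in both libraries, whereas 3 of 4 lymphocyte markers in library 1 and all 4 in library 2 were at 0. Markers of other cells reached 0.5% of UMIs in 8 and 3 members. Their part in the differences below was not tested beyond the alternatives that leave those members out.

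Nppa, which encodes atrial natriuretic peptide, took no part in the selection and was far higher in members than in ventricular-type barcodes. The gene (ENSMUSG00000041616) lies on chromosome 4 from 148000722 to 148002079 (GRCm38). It had 9379 and 1231 CPM in atrial-type barcodes of libraries 1 and 2, from 4240 and 136 UMIs, against 29.1 and 1.83 CPM in ventricular-type barcodes, from 1285 and 42 UMIs. Nppa was higher by 8.51 ± 0.35 on the log2 scale (SE, edgeR adjusted p = 4.6e-122). Without library as a block the difference was 8.23 and was not called (adjusted p = 0.13 in edgeR). Both atrial-type values lay above both ventricular-type values. Here and for the genes below, such separation of 2 sums from 2 is a description. The share of all genes that separate in this way was not counted. Thinned to 1000 UMIs each, 74.3% and 58.3% of members had a Nppa UMI (unthinned 91.4% and 75.0%), against 3.37% and 0.119% of ventricular-type barcodes (unthinned 14.2% and 1.59%). Barcodes of other cells (Ttn and Ryr2 under 1%) include those left out above for low Ttn and Ryr2. Without every such barcode that held a UMI of Myl4, Myl7 or Sln, 2432 and 6127 other cells remained, with median depths of 1881 and 3121 UMIs, and 9.05% and 0.571% of them had a Nppa UMI at equal depth (unthinned 15.1% and 1.60%). The ventricular-type shares did not exceed these, so no ventricular-type expression of Nppa is read from them.

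Within the members, Nppa went with the genes of the rule. Its UMIs per barcode ran from 0 to 836 in library 1, with a median of 15.5, and from 0 to 49 in library 2, with a median of 8.5. One barcode held 19.7% of the Nppa UMIs of library 1 and one held 36.0% of those of library 2. The share of Myl4, Myl7 and Sln and that of Nppa had a Spearman correlation of 0.852 over 70 members of library 1 and 0.831 over 12 of library 2, where each pair of values shares a barcode and its depth. In library 1 both also moved with the mitochondrial share, at 0.709 for the rule genes and 0.680 for Nppa. In library 2 these correlations were -0.035 and 0.070. Members of library 1 above 2% mitochondrial UMIs had 20467 CPM of Nppa and those at or below it 3841 CPM, against 55.8 and 28.8 CPM in the ventricular-type barcodes of the same 2 ranges. The difference between the types was thus present on both sides of the limit.

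**Figure D2:**
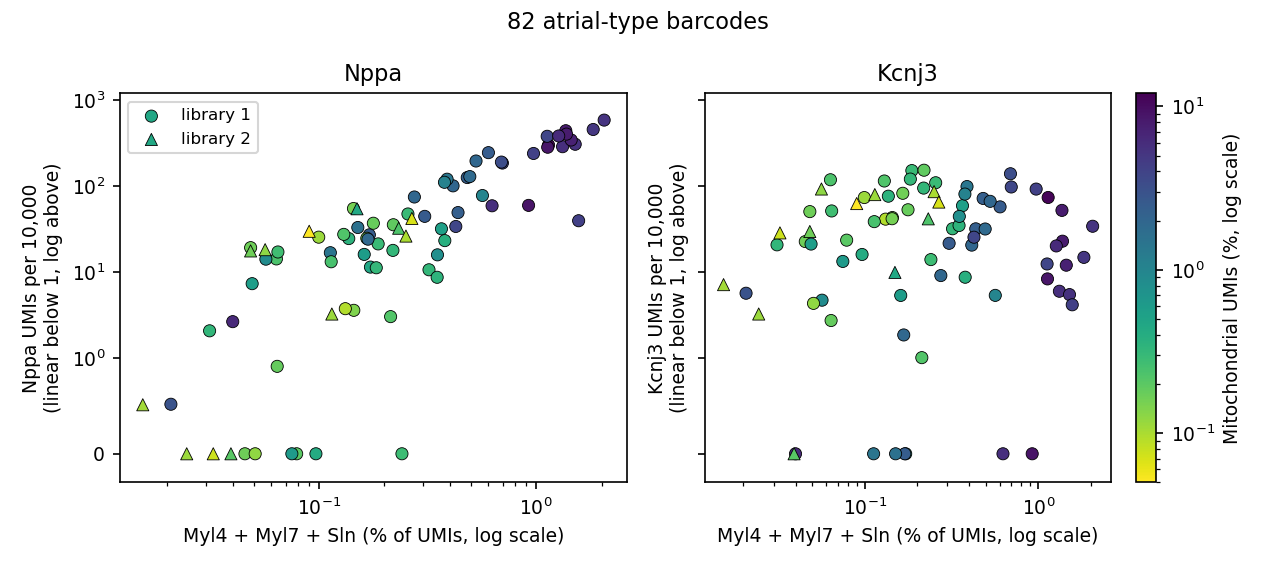
Each of the 82 atrial-type barcodes by its share of Myl4, Myl7 and Sln UMIs (horizontal axis, percent, log scale) and its Nppa or Kcnj3 UMIs per 10000 (vertical axes), with circles for library 1, triangles for library 2 and colour for the mitochondrial share. Nppa climbs with the rule genes (Spearman 0.852 in library 1), while for Kcnj3 the correlation is 0.0518 in library 1 and 0.643 in library 2.

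Over the whole table, 452 of 14160 genes tested were higher in atrial-type barcodes (3.19%) and 228 were lower (1.61%), at an adjusted p under 0.05 in edgeR's quasi-likelihood test on UMI sums per library and type with library as a block. The median log2 difference was -0.11. Of the 680 calls, 655 had the same sign in both libraries. Among the genes tested, 128 passed the filter on low counts with neither ventricular-type sum at its limit, and 17 of these were called. They are kept in the counts and shares given here. The split between higher and lower depends on the scaling, with 643 higher and 111 lower by total counts alone, where the median moves to 0.14. The lower calls were the more fragile ones, since 0 remained without the library block (717 at an unadjusted p under 0.05 in edgeR, beside 57 adjusted calls higher) and DESeq2 called 11, beside 239 higher. Members with at most 2% mitochondrial UMIs gave 271 higher and 133 lower genes, and those with under 0.5% markers of other cells 188 and 97. For each gene named below as called, the number of 15 such alternatives that kept its call is given, where it was under 15.

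The 15 genes with the largest positive differences, among those with enough UMIs in both libraries, encode ion channel subunits and partners, secreted factors and a sarcomere protein, among others. Fgf12, an intracellular partner of voltage-gated sodium channels, had 588 and 1755 CPM in atrial-type barcodes, against 1.11 and 1.05 CPM in ventricular-type ones, a log2 difference of 9.53 ± 0.38 (SE, edgeR adjusted p = 4.7e-132). Bmp10, a ligand of the BMP family secreted by atrial muscle, had 259 and 45.2 CPM (117 and 5 UMIs) against 0.611 and 0.0436 CPM (27 and 1 UMIs). Mybphl, a relative of myosin-binding protein C, had 281 and 145 CPM against 0.702 and 0.262 CPM. Each of the 3, chosen for its difference, had both atrial-type values above both ventricular-type values. Bmp10 and Mybphl passed the filter on low counts only through the atrial-type sums. Cacna2d2, Sbk3, Cpne5 and Sphkap, named below, did not reach its limit of 0.855 CPM in both ventricular-type sums. They too needed the atrial-type sums to pass. Further genes were Tmem163, a zinc transporter (log2 difference 7.93), Ryr3, a ryanodine receptor isoform (7.59), the calcium channel subunit Cacna2d2 (6.76), the kinase-like Sbk3 (6.75) and Lmntd1 (6.67). Below them came the synaptic adhesion gene Lrrc4c (6.62), the copine Cpne5 (6.50), Dkk3 of the Dickkopf family (6.18), the kinase anchor Sphkap (6.12), the potassium channel Kcnh7 (6.02) and the relaxin receptor Rxfp1 (5.77). Their edgeR calls were kept in 15 of 15 alternatives except for Nppa, which lost its call without the library block. In library 2 a single barcode held 75.9% of the UMIs of Lmntd1 and 72.4% of those of Kcnh7. The same share was 62.5% for Cacna2d2 and Cpne5 and 57.1% for Sphkap.

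**Figure D3:**
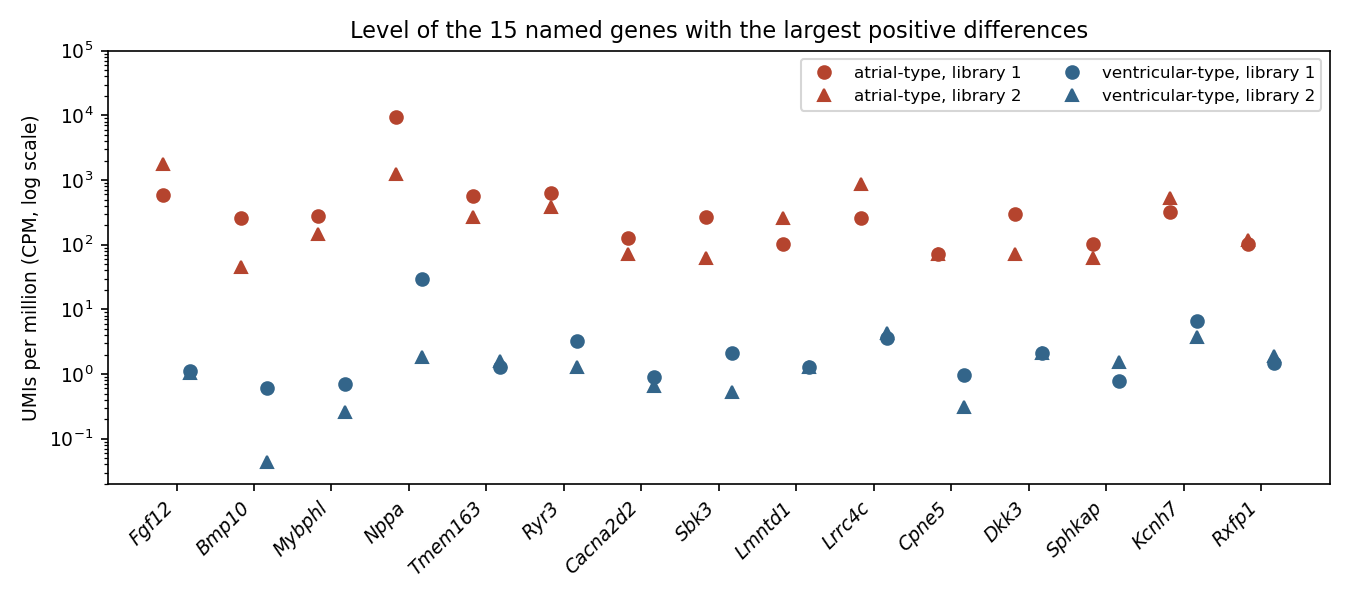
UMIs per 1000000 (vertical axis, log scale) of the 15 genes with the largest positive log2 differences under the naming rule, as sums over atrial-type (red) and ventricular-type (blue) barcodes of library 1 (circles) and library 2 (triangles). For every gene shown both red points lie above both blue points, as for Nppa at 9379 and 1231 against 29.1 and 1.83 UMIs per 1000000. The genes were chosen for these differences, so their separation is no further support. Bmp10 and Mybphl also passed the filter on low counts only through the atrial-type sums. Cacna2d2, Sbk3, Cpne5 and Sphkap needed those sums to pass as well.

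The 15 genes with the largest negative differences were lower by less. Myh7b, a myosin heavy chain, had 137 and 36.2 CPM in atrial-type barcodes, against 373 and 373 CPM in ventricular-type ones, a log2 difference of -2.24 ± 0.32 (SE, edgeR adjusted p = 7.9e-10, kept in 14 of 15 alternatives). Prdm16, a transcriptional regulator linked to compact ventricular muscle, had 153 and 72.4 CPM, against 363 and 361 CPM, a difference of -1.88. Tacc2, a coiled-coil protein, had 889 and 471 CPM, against 2285 and 1743 CPM (-1.89), and Prdm16 and Tacc2 were each kept in 14 of 15. In library 2 only 2 members had a Prdm16 UMI, and a single barcode held 75% of its 8 UMIs. For Tacc2 a single barcode held 71.2% of its 52 UMIs there. Lrtm1 (-1.91) and Adra1a, the alpha-1A adrenergic receptor (-1.87), were kept in 13 of 15. For these 5 genes, chosen for their differences, both atrial-type values lay below both ventricular-type values. Tmeff1, Qsox2, Ogdhl, Txnrd1, Fndc9, Ntn4, Vav2, Cmtm8, Ttc27 and Gipc2, from -3.02 to -1.76, rested on 2 to 24 atrial-type UMIs in library 1 and 0 to 4 in library 2, and were kept in 4 to 10 of 15 alternatives.

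The lists of genes that follow were read from the same fit, and their members were chosen with earlier results of these data known. Their counts stand beside 3.19% higher and 1.61% lower over all genes tested. Of 12 genes of atrial identity, all were tested, 10 were higher and 0 lower (0 also at an unadjusted p under 0.05 in edgeR and 0 by DESeq2), with a median log2 difference of 3.99 beside -0.11 for all genes. Bmp10 and Mybphl, which passed the filter only through the atrial-type sums, had to differ, and of the other 10 genes 8 were higher, with a median of 3.31. Besides Nppa, Bmp10, Mybphl and Dkk3, the lipid transfer protein Stard10 had 206 and 18.1 CPM (93 and 2 UMIs), against 3.89 and 2.05 CPM, a difference of 4.91 (kept in 14 of 15). Gja5, the connexin of atrial and conduction tissue, differed by 3.83 from 13 and 3 UMIs (kept in 13 of 15). The nuclear receptors Nr2f1 (4.16) and Nr2f2 (2.79) rested on 10 and 1 and on 24 and 5 UMIs and were kept in 11 of 14 alternatives that tested Nr2f1 and in 12 of 15 for Nr2f2. Both calls were lost without the library block and in members with at most 2% mitochondrial UMIs, where the differences were 4.0 and 2.05, that of Nr2f1 also with Ttn and Ryr2 at least 2% in both types (3.98) and that of Nr2f2 also with other markers under 0.5% (2.52, adjusted p = 0.052 in edgeR). At equal depth Nr2f2 was detected in 8.57% and 8.33% of members and in 0.478% and 0.913% of ventricular-type barcodes, but also in 9.23% and 10.9% of other cells, and 1 barcode held all Nr2f2 UMIs of the members of library 2. Kcnj5 was not called, at 99.5 and 109 CPM against 70.4 and 44.5 CPM.

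On the ventricular side, 2 of 6 genes tested were lower and 0 higher (0 higher at an unadjusted p under 0.05 in edgeR and 0 by DESeq2), with a median of -1.08. Myl2, the ventricular regulatory light chain, had 768 and 199 CPM in atrial-type barcodes, against 1113 and 839 CPM in ventricular-type ones, a difference of -1.45 ± 0.28 (SE, edgeR adjusted p = 2.2e-05, kept in 12 of 15). Myl2 was also higher in barcodes with more mitochondrial UMIs, so it was read within each range. Above 2% it had 1222 CPM in members of library 1, against 4900 CPM in ventricular-type barcodes, and at or below 2% it had 541 and 199 CPM, against 1074 and 824 CPM. It was lower in members in each of these 3 comparisons. This did not hold for every part of the members. Those with 3 to 5 UMIs of Myl4, Myl7 and Sln (15 and 7) had 1727 and 315 CPM of Myl2, above the ventricular-type level in library 1. Those with 6 to 9 (16 and 3) had 764 and 108 CPM. A single barcode held 18.7% of the Myl2 UMIs of the members of library 1. Lbh, a transcriptional cofactor, had 92.9 and 18.1 CPM, against 136 and 135 CPM (-1.34, kept in 10 of 15). Myl3 (adjusted p = 0.083 in edgeR), Irx4 (0.23), Hey2 (0.85) and Myh7 (0.54) were not called.

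Among 12 genes of hormone storage and secretion, 7 were tested, 4 were higher and 0 lower (1 lower at an unadjusted p under 0.05 in edgeR, 0 by DESeq2), with a median of 1.60. Pam, a membrane enzyme that amidates peptides and is abundant in atrial granules, had UMIs in every member. So did 85.9% and 94.6% of ventricular-type barcodes. At equal depth 85.7% and 83.3% of members had a Pam UMI. The shares were 41.0% and 47.7% of ventricular-type barcodes and 41.6% and 46.0% of other cells. Pam had 2692 and 3647 CPM in members, against 573 and 723 CPM, a difference of 1.99 ± 0.26 (SE, edgeR adjusted p = 8.6e-12). Both atrial-type values lay above both ventricular-type values, also among members of library 1 at or below 2% mitochondrial UMIs, at 2604 CPM. Pcsk6, a proprotein convertase, was called at 1.93 (kept in 9 of 15), although 1 barcode held 80.0% of its 10 UMIs in library 1. Nppb, the gene of brain natriuretic peptide, was called at 1.60 (kept in 8 of 15) on library 1 alone, with 124 and 9.05 CPM in members, against 25.1 and 12.6 CPM. Corin, the protease that cleaves the Nppa precursor, was not called, at 2579 and 1973 CPM against 3122 and 2732 CPM. Nppa and Nppb were also the 2 higher genes among 9 of fetal or stress programmes, where the median was -0.06 and 0 were lower (0 at an unadjusted p under 0.05 in edgeR and 0 by DESeq2).

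Of 30 transcription factors, 27 were tested, with 3 higher and 6 lower and a median of -0.51. These were 11.1% and 22.2%, beside 3.19% and 1.61% of all genes. Tbx5, a T-box factor of atrial and conduction development, had 473 and 461 CPM in members, against 88.8 and 61.3 CPM, a difference of 2.36 ± 0.29 (SE, edgeR adjusted p = 1.4e-13). Its groups did not overlap, and 50 of 70 and 8 of 12 members had a Tbx5 UMI. The other 2 higher genes were Nr2f1 and Nr2f2. Meis2, a homeobox factor, had 383 and 208 CPM, against 775 and 611 CPM (-1.52, kept in 13 of 15). Of the other lower genes, 4 regulate mitochondrial and lipid metabolism, namely Ppara (-1.51, kept in 12 of 15), Esrrg (-1.18, 11 of 15), Esrrb (-1.12, 6 of 15) and the coactivator Ppargc1a (-0.93, 7 of 15). Tead1, an effector of Hippo signalling, was at -0.93 (6 of 15), and Gata4 was not called (adjusted p = 0.47 in edgeR).

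**Figure D4:**
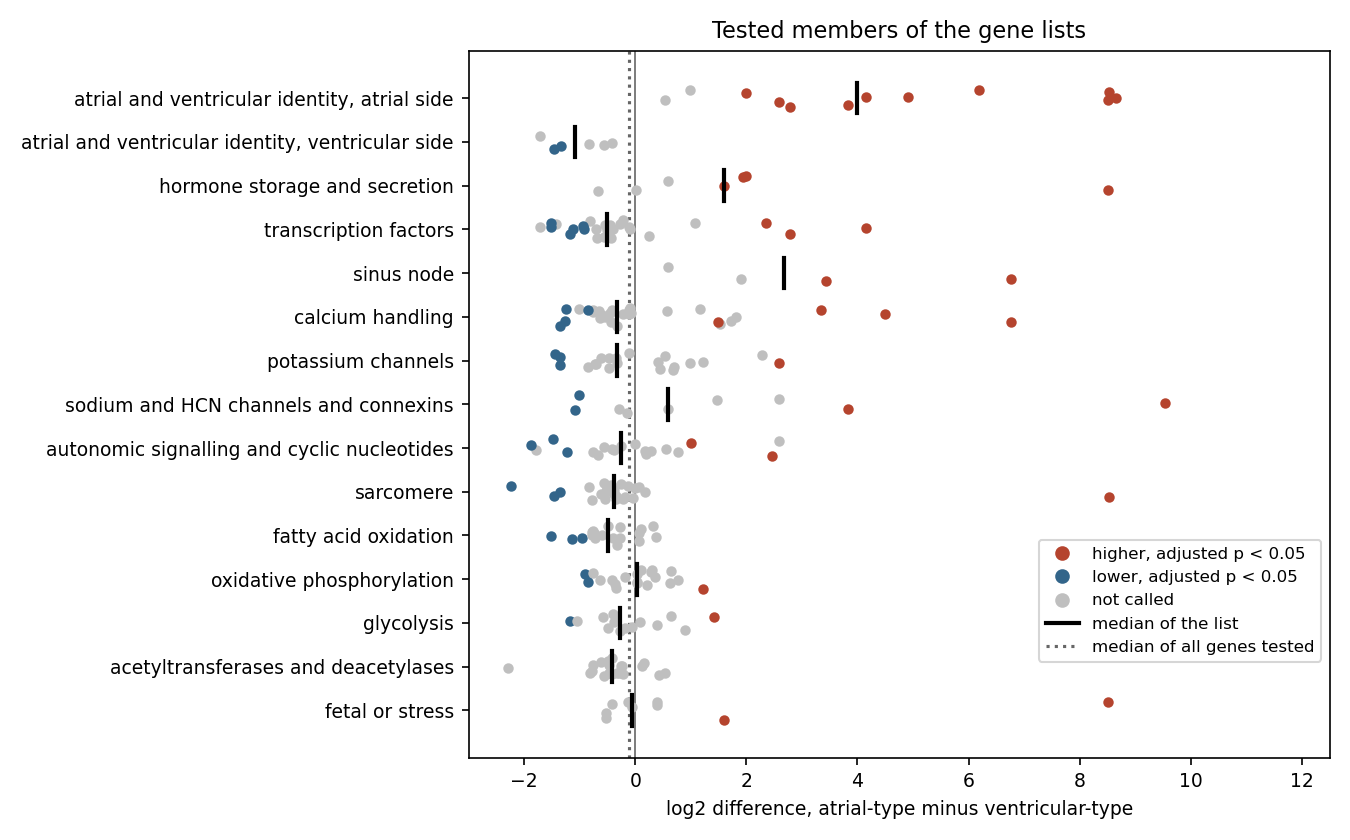
Log2 difference, atrial-type minus ventricular-type (horizontal axis), of each tested gene in 15 lists (rows), in red where higher, blue where lower and grey where not called, with the list's median as a bar and the median of all genes, -0.11, as a dotted line. The atrial identity list has a median of 3.99 and the ventricular side one of -1.08.

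The calcium handling genes moved in both directions. Of 29 tested, 4 were higher and 4 lower (13.8% each, beside 3.19% and 1.61% of all genes), with a median of -0.33. The L-type channel showed it in its pore subunits. Cacna1d, the Cav1.3 subunit found in atria and pacemaker cells, had 378 and 615 CPM in members, against 13.9 and 22.0 CPM, a difference of 4.49 ± 0.32 (SE, edgeR adjusted p = 6.3e-42). Only 33 members of library 1 and 7 of library 2 had a Cacna1d UMI, and 1 barcode held 54.4% of those of library 2. Cacna1c, the Cav1.2 subunit, was lower but still present in members. It had 4818 and 5013 CPM, against 9005 and 11652 CPM, a difference of -1.35 ± 0.26 (adjusted p = 2.7e-05 in edgeR, kept in 11 of 15). In members with at most 2% mitochondrial UMIs it was at -1.20 (adjusted p = 0.13 in edgeR). The groups overlapped for neither gene. The auxiliary subunits split likewise, with Cacna2d2 at 128 and 72.4 CPM against 0.905 and 0.654 CPM, and Cacna2d1 at 869 and 552 CPM against 1410 and 1353 CPM (-1.26, kept in 12 of 15). Cacna2d2 needed the atrial-type sums to pass the filter on low counts.

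Cacna1h, a T-type channel, was higher by 3.35 from 21 and 7 UMIs, and 1 barcode held 57.1% of those of library 2. S100a1, a calcium-binding regulator of SERCA2 and the ryanodine receptor, was higher as well. It had 181 and 45.2 CPM, against 40.0 and 27.0 CPM (kept in 8 of 15). Pln, phospholamban, had 2064 and 823 CPM in members, against 3127 and 2120 CPM, a difference of -1.25 ± 0.26 (SE, edgeR adjusted p = 1.6e-04, kept in 13 of 15). Sln, its atrial counterpart, was part of the selection and stood at 1155 and 72.4 CPM in all members. Trdn, which anchors calsequestrin at the release site, was at -0.85 (kept in 6 of 15). Atp2a2, the SERCA2 pump, was not called, at 6492 and 3565 CPM against 5833 and 4713 CPM, and neither was the exchanger Slc8a1 (adjusted p = 0.059 in edgeR).

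Among 21 potassium channel genes, 1 was higher and 3 were lower, with a median of -0.32. These were 4.76%, near the 3.19% of all genes, and 14.3%, beside 1.61%. Kcnj3 encodes GIRK1, a subunit of the acetylcholine-activated channel. It had 4112 and 3620 CPM in atrial-type barcodes, against 634 and 432 CPM in ventricular-type ones, a difference of 2.59 ± 0.27 (SE, edgeR adjusted p = 1.9e-19). The groups did not overlap, and within library 1 Kcnj3 was at 3347 CPM above 2% mitochondrial UMIs and 4494 CPM at or below it. At equal depth 71.4% and 75.0% of members had a Kcnj3 UMI (unthinned 90.0% and 91.7%), against 42.6% and 29.9% of ventricular-type barcodes (unthinned 82.7% and 71.4%) and 14.2% and 2.42% of other cells. The lower genes belong to the transient outward and ATP-sensitive currents. Kcnd2, the Kv4.2 pore, had 2557 and 2172 CPM, against 4959 and 4949 CPM (-1.36, kept in 13 of 15), its partner Kcnip2 was at -1.36 (8 of 15), and the sulfonylurea receptor Abcc9 at -1.45 (12 of 15). Abcc8, the other sulfonylurea receptor, was not called, at 263 and 163 CPM against 137 and 124 CPM.

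Of 9 sodium channel, HCN and connexin genes tested, 2 were higher and 2 lower, with a median of 0.60. The 2 FGF homologous factors moved in opposite directions, with Fgf12 higher as above and Fgf13 at 2973 and 3312 CPM in members, against 5010 and 5826 CPM (-1.08, kept in 10 of 15). The connexins did too, with Gja5 higher and Gja1, the connexin of working muscle, at 248 and 271 CPM, against 415 and 450 CPM (-1.02, kept in 8 of 15). From a sinus node list of 7, 4 genes were tested and 2 were higher, namely Cacna2d2 and Tbx3, a repressor of working-muscle genes in the conduction system (3.44, from 8 and 2 UMIs, kept in 9 of 15). As above, Cacna2d2 passed the filter only with the atrial-type sums. The median of the 4 was 2.67. None was lower (0 at an unadjusted p under 0.05 in edgeR and 0 by DESeq2), and Shox2 and Isl1, which define pacemaker cells, had 0 UMIs in members.

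**Figure D5:**
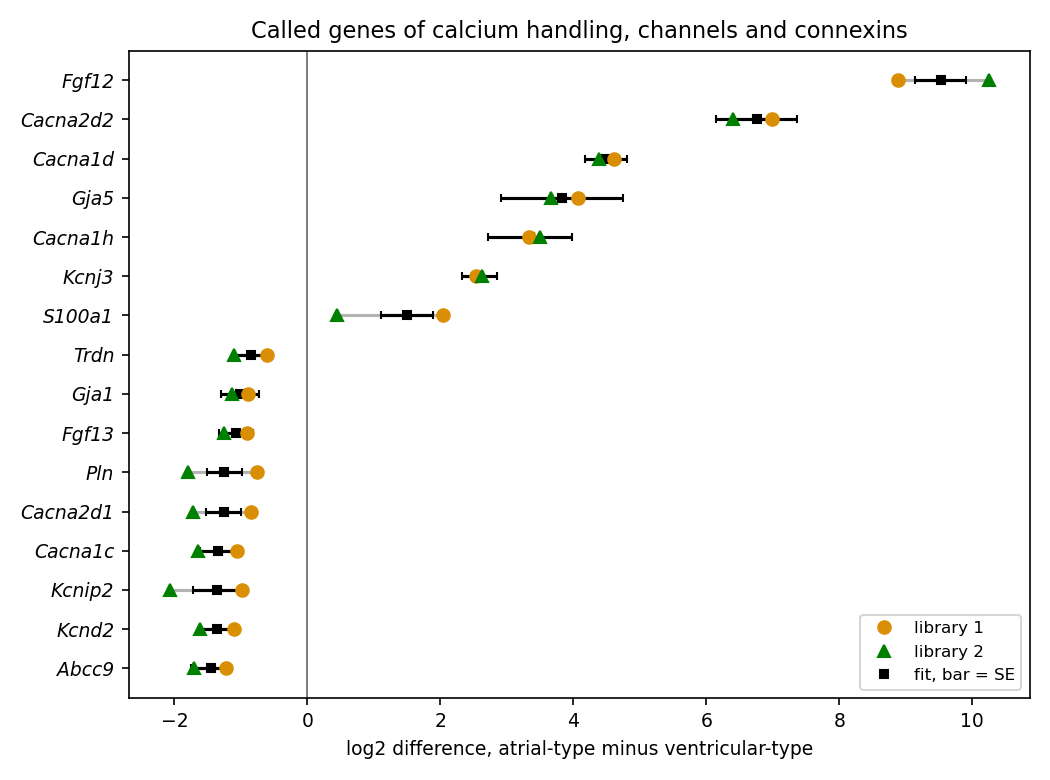
Log2 difference, atrial-type minus ventricular-type (horizontal axis), for the called genes of calcium handling, potassium channels, and sodium and HCN channels and connexins, in library 1 (circles), library 2 (triangles) and the fit (squares, bars are 1 SE). For all 16 genes both libraries lie on the same side of 0, as for 655 of the 680 calls over all genes. S100a1 and Fgf12 differ most between libraries on the higher side.

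Autonomic signalling had 2 higher and 3 lower of 19 genes tested, with a median of -0.25. These were 10.5% and 15.8%, beside 3.19% and 1.61% of all genes. Gnao1, a G protein alpha subunit of muscarinic signalling, had 184 and 181 CPM in members, against 25.8 and 29.7 CPM, a difference of 2.46 ± 0.36 (SE, edgeR adjusted p = 1.2e-09, kept in 14 of 15). Rgs6, which shuts off that signal, had 2415 and 2416 CPM, against 846 and 1160 CPM (1.00, kept in 10 of 15). The cyclic nucleotide phosphodiesterases Pde4d (-1.49, kept in 12 of 15) and Pde3a (-1.23, 11 of 15) were lower, as was Adra1a. For Gnao1, Rgs6, Pde4d and Pde3a the groups did not overlap, which with 2 sums of each type is no test.

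Most contractile and metabolic genes tested were not called. Of 25 sarcomere genes tested, 1 was higher (Mybphl, through the atrial-type sums alone) and 3 were lower (Myl2, Myh7b and Mybpc3), with a median of -0.38. The lower genes were 12% of this list, beside 1.61% of all genes, and 15.8% of the fatty acid oxidation list. The lists were not matched in level to all genes, and members had the lower limit on Ttn and Ryr2. With that limit at 2% in both types, 4 sarcomere and 3 fatty acid oxidation genes were lower. Mybpc3, cardiac myosin-binding protein C, had 829 and 362 CPM, against 1312 and 1064 CPM (-1.35, kept in 12 of 15). Myh6, the main myosin heavy chain of the adult mouse heart, was not called, at 12880 and 8216 CPM against 10120 and 11215 CPM. Of 19 fatty acid oxidation genes, 3 were lower, namely the fatty acid transporter Cd36 (-1.14, kept in 11 of 15), the lipase Lpl (-0.96, 8 of 15) and Ucp3 (-1.51, 10 of 15). None was higher there (0 at an unadjusted p under 0.05 in edgeR and 0 by DESeq2), and the median was -0.49.

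Of 20 oxidative phosphorylation genes, Cox7a1 was higher (1.22) and Ckmt2 (-0.91) and Ogdh (-0.85) were lower, with a median of 0.04. Of 15 glycolysis genes, Pgam2 was higher (1.41) and Hk2 lower (-1.18), with a median of -0.27. The higher genes were 5% and 6.67% of these lists, beside 3.19% of all genes. The lower ones were 10% and 6.67%, beside 1.61%. These 5 calls were kept in 1 to 6 of 15 alternatives, and Cox7a1 and Pgam2 had only 2 and 1 UMIs in the members of library 2.

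The targeted genes come last, because the counts cannot show the deletion without a control sample or read positions. Ep300 had 99.5 and 145 CPM in atrial-type barcodes (45 and 16 UMIs), against 111 and 120 CPM in ventricular-type ones. Crebbp had 294 and 480 CPM (133 and 53 UMIs), against 384 and 479 CPM. Neither differed beyond the spread, with edgeR adjusted p = 0.84 and 0.44. Of 20 acetyltransferase and deacetylase genes, 0 were called in either direction by edgeR or DESeq2, with 0 higher and 3 lower at an unadjusted p under 0.05 in edgeR and a median of -0.42. In edgeR 1 was lower with Ttn and Ryr2 at least 2% in both types, and 1 with no filter on low counts. GFP, a feature of the table that the labels do not explain, had 26.5 and 9.05 CPM in members, from 12 and 1 UMIs, against 43.8 and 40.2 CPM in ventricular-type barcodes and 2.95 and 2.04 CPM in other cells. The difference of -1.22 between the types was not called (adjusted p = 0.21 in edgeR), and at this depth the GFP level of the members of library 2 (Poisson interval 0.229 to 50.4 CPM) could not be told from either.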

How the data were processed

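Droplet libraries (3' v3 chemistry, per the labels' protocols) were deposited as unnormalized UMI counts for each feature and barcode. Per the file headers, Cell Ranger 6.0.0 wrote them. Tools named in the submitters' processing notes are edgeR, Seurat, fastp and Trimmomatic besides Cell Ranger, with the build GRCm38 (mm10) and no roles. Strand use and the counting of introns are not given in the sources used here. Barcode suffixes 1 and 2 were taken as the samples whose titles end in 1 and 2. The table held 27999 features, and total depth was 57982200 and 50199793 UMIs.

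UMIs were summed per library and type and tested with edgeR 4.0.16 (quasi-likelihood, TMM, filterByExpr by type, library as block because both types of a library share 1 suspension, 1 residual degree of freedom) in R 4.3.3, with Benjamini-Hochberg adjustment over 14160 genes. The 5 selection genes stayed in library sizes and were not tested. CPM are UMIs per 1000000 UMIs of the sum. Levels of different genes are not per length. No doublet caller was run, and limits on depth and on other markers were tried instead. Genes were named if called, alike in sign in both libraries, with at least 20 and 5 UMIs in libraries 1 and 2 and no Gm or Rik symbol (15 per direction), or if listed. Members and lists were chosen with earlier results of these data known, and some genes are not reported here and were left out of the lists. The script was tested on simulated data. Alternatives used DESeq2 1.42.0 and other scalings and rules. Summaries and plots used Python 3.11.15, numpy 2.4.6, scipy 1.17.1, pandas 2.3.3 and matplotlib 3.10.9.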

Additional observations from a re-analysis of the deposited data

How the results depend on the processing

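The limits are the 12 members of library 2, 1 residual degree of freedom and the mitochondrial share of library 1. The unlike Ttn and Ryr2 limits of the 2 types are another. Against 452 higher and 228 lower genes (66.5% higher of those called), the counts were 57 and 0 without the replicate block, 239 and 11 with DESeq2, 183 and 29 with at least 10 UMIs of Myl4, Myl7 and Sln, 254 and 75 at 2000 to 8000 UMIs, 195 and 134 with Ttn and Ryr2 at least 2% in both types, 188 and 97 with other markers under 0.5%, 271 and 133 with mitochondrial UMIs at most 2%, and 233 and 28 with a rule without Myl4. Total counts alone left 111 lower. All 57 higher calls without the block and 233 of the 239 by DESeq2 were among the 452. The other alternatives stayed within 1.5 times of both counts, and with Ttn and Ryr2 at least 1% in both they were 392 and 216.

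Over all lists, 23 genes were higher and 28 lower of 222 tested (10.4% and 12.6%, beside 3.19% and 1.61% of all genes). Without the replicate block 11 were higher and 0 lower. The lower count was 3 by DESeq2, 10 with at least 10 UMIs, 16 at 2000 to 8000 UMIs, 18 with other markers under 0.5% and 7 without Myl4. Of 73 genes named as called, 19 kept their call in all 15 alternatives, and none of the tested alternatives turned a direction. In library 2 alone, without replicate 1, Nppb was at -0.33, Cox7a1 at -0.42 and Pgam2 at -0.64, and in library 1 alone, without replicate 2, they were at 2.16, 1.78 and 1.99 there, where all 73 kept their sign. Ep300, not called, was at 0.019 by total counts alone. The cause of these changes was not tested.

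The number of members in library 1 was 39 at 10 UMIs or more, 33 with at least 0.3% of UMIs, 50 with 2% Ttn and Ryr2, 47 at 2000 to 8000 UMIs and 44 at most 2% mitochondrial. In library 2 it was 2 at 10 UMIs or more, 0 at 0.3%, 7 at 2000 to 8000 UMIs and 4 without Myl4, and with 0 members at 0.3% no fit was run.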
